A study of Mus musculus with 6 samples.

Results

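Genes for the protein factors of translation initiation and elongation were examined by RNA-seq in CD4+ T cells from mouse spleen, which had received MAPK13-IN-1, an inhibitor of the kinase Mapk13, or DMSO, its solvent. Members were the gene symbols that begin with Eif or Eef followed by a digit, without the eIF2 kinases *Eif2ak1* to *Eif2ak4*, the Y-linked *Eif2s3y* and names that mark pseudogenes, and with at least 10 counts in each of the 4 libraries of the count table. The pattern matched 67 of the 35602 genes in that table, and 61 of them were kept, with 112 to 507553 counts in a library. A ribosome starts on most cellular mRNAs after the eIF4 factors have bound the cap at the 5′ end, and eIF2 has brought the initiator tRNA to the small subunit on a scaffold of eIF3. Elongation then depends on eEF1A, which delivers each aminoacyl-tRNA, and on eEF2, which moves the ribosome along by a codon. Resting T cells translate little, and stimulation through the T cell receptor and CD28 raises both protein synthesis and the supply of these factors.

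The series holds 6 libraries, 3 from DMSO-treated and 3 from MAPK13-IN-1-treated cells, and its design text gives 72 h of stimulation through CD3 and CD28. Replicates 2 and 3 of each group are labelled as wild type (WT), with 17.1 µM inhibitor or 0.1 µl DMSO added after day 1, and came from libraries made with poly-T beads. The replicate 1 pair was made with another kit, a stranded mRNA kit, and its labels give the treatment without dose, time or genotype. Addition after day 1 and 72 h of stimulation with inhibitor or DMSO do not give the same exposure, so that its length is uncertain. The labels give no strain, age or animal, and do not say whether replicates are separate cultures. Total counts were 26874805 and 28487403 in DMSO replicates 2 and 3, and 33854760 and 32617702 in MAPK13-IN-1 replicates 2 and 3. For the replicate 1 pair only values read as FPKM (fragments per kilobase of transcript, scaled to library size) were available, so that its depth is unknown and it has no replicate.

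The labelled cell type was checked against its markers before the factor genes were compared. Of the 8 T cell markers found, none was at 0, and their summed counts-per-million values (CPM, scaled to the library total) were 1705 and 1733 in the DMSO-treated libraries and 1088 and 1195 in the MAPK13-IN-1-treated libraries, with *Cd5* and *Cd4* as the most abundant genes. *Cd4* itself had a log2 fold change of -0.00, while 6 of the 8 genes were lower in the test described below, in which 32.3% of all genes were lower and 31.5% higher. B cell markers were also abundant, which the label does not give. Their sum over 9 genes, none at 0, was 889.6 and 863 CPM under DMSO, with *Cd22* or *Cd79b* highest, and 1174 and 1164 CPM under MAPK13-IN-1, with *Pax5* highest, and 7 of them were higher and 2 lower. In the replicate 1 pair the B cell sum was far below the T cell sum, at 41.3 and 28.1 FPKM against 1074 and 1003 FPKM, so that the library batches differed in this respect. Erythroid markers summed to 10.1 and 9.76 CPM in the DMSO libraries and to 95.4 and 68.8 CPM in the treated libraries, 5 of 7 tested being higher and *Hbb-bs* the most abundant under treatment. Macrophage and myeloid markers summed to 13.2 and 11.4 CPM and then to 44.5 and 36.7 CPM, with *Cd68* the most abundant and 6 of 7 tested genes higher. Of these 6, *C1qb* had 2 and 0 counts under DMSO and 14 and 12 under MAPK13-IN-1. It was tested only through its treated libraries, so that its call is not used. *C1qa* had 0 counts in both DMSO libraries and in MAPK13-IN-1 replicate 3. Markers of CD8 T and NK cells summed to 12.9 and 12.8 CPM under DMSO and to 7.98 and 10.5 CPM under treatment, with *Cd8b1* highest and *Ncr1* at 0 in 3 of the 4 libraries, but to 4.35 and 13.5 FPKM in the replicate 1 pair. Neutrophil markers summed to at most 0.797 CPM in any of these libraries, with *S100a9* at 0 in all 4. *Mpo*, the only one of them tested, had 2 counts in each DMSO library and 17 and 16 in MAPK13-IN-1 replicates 2 and 3. It passed the filter only through the treated group, so that its call is not used. In the pair of replicate 1, sums were 1.00 and 2.03 FPKM for erythroid, 2.99 and 9.51 FPKM for myeloid and 0.533 and 0.351 FPKM for neutrophil markers. The paper's methods name a kit for isolating mouse CD4 T cells, and markers of other cells were present after it. Markers of other cells differed between the groups, and their part in the results given below was not tested. In these bulk samples fewer cells of a type and less RNA per cell cannot be told apart.

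The comparison of MAPK13-IN-1 with DMSO asked which factor mRNAs differed in their share of the library after treatment. It used the quasi-likelihood test of edgeR with 2 libraries per group, p-values were Benjamini-Hochberg adjusted over all 16269 genes tested, and genes with an adjusted p under 0.05 were called. Such p-values measure only the spread between these libraries, which may be technical. Of the 61 factor genes, 37 were lower (60.7%) beside 32.3% of all genes tested, and 11 were higher (18%) beside 31.5% of all genes. A call in either direction was made for 48 of them (78.7%) and for 63.8% of all genes. The median log2 fold change was -0.29 over the factor genes and 0.01 over all genes tested. Most factor genes are abundant, and abundant genes were called more often. Of 4290 genes with a mean of at least 50 CPM (from here on normalised by TMM), 39.6% were lower and 34.4% higher, with a median log2 fold change of -0.03. Among the 45 factor genes of that abundance, 27 were lower (60%) and 10 higher (22.2%), with a median of -0.29. With a change of at least 1.5-fold also asked for, 17 factor genes were lower and 4 higher, beside 19.6% and 20.3% of all genes, or 39.9% in either direction. Against a 1.2-fold change in edgeR's glmTreat, 26 were lower and 6 higher, beside 24.4% and 23.7%. In CPM, both treated libraries were below both DMSO libraries in 39 of the 61 factor genes and above them in 17, beside 41.4% and 41.7% of all genes. All 48 called genes are among these, which a call between groups of 2 libraries makes likely. No called factor gene changed direction under another setting, but calls did change. Without DMSO replicate 3 only 6 factor genes were higher, while all genes called higher went from 5122 to 4298. Scaling by library totals alone added *Eif1a*, *Eif3a*, *Eif3j2*, *Eif3l*, *Eif3m*, *Eif4ebp3* and *Eif5b* to the higher genes and took *Eif2b4*, *Eif2d*, *Eif2s1*, *Eif4e3* and *Eif5* from the lower ones. Upper-quartile scaling made the same changes except those of *Eif1a*, *Eif2d* and *Eif4e3*.

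**Figure D1:**
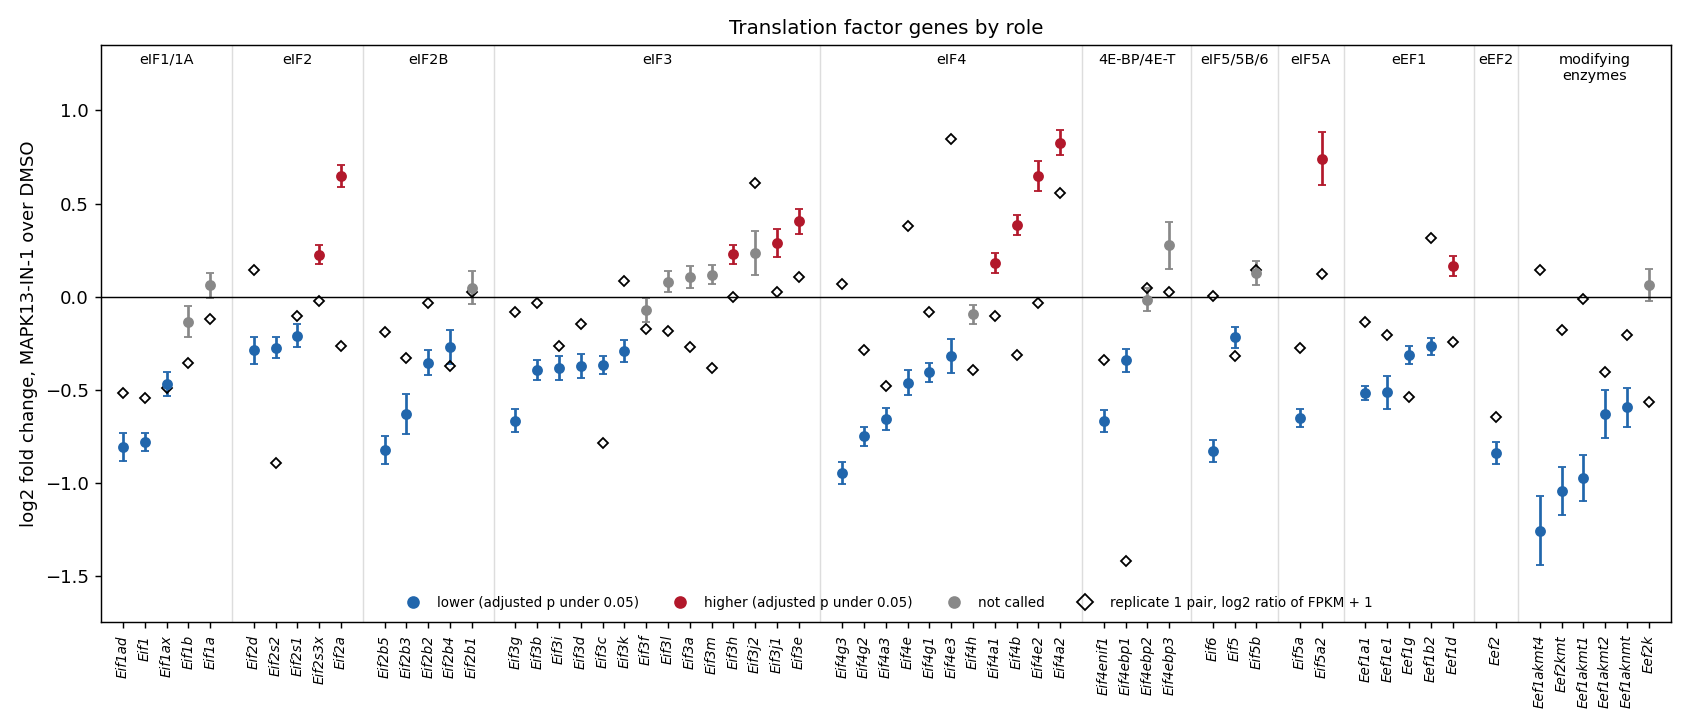
Log2 fold change of each of the 61 factor genes, MAPK13-IN-1 over DMSO, in the count table (circles with standard error, 2 libraries per group, coloured by call) and log2 ratio in the replicate 1 pair (open diamonds, 1 library per group), grouped by role. Circles of 37 genes are called lower and of 11 higher, and *Eif4ebp1* has the lowest diamond.

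The 6 matched genes that were not kept had few counts. *Eif4e1b*, *Eif2c5* and *Eif4a3l1* had 0 counts in all 4 libraries. *Eef1a2*, the eEF1A isoform of muscle and neurons, had 0 counts in both DMSO libraries and 10 and 9 in the MAPK13-IN-1 libraries. The methyltransferase gene *Eef1akmt3* had 5, 17, 8 and 9 counts in DMSO replicates 2 and 3 and MAPK13-IN-1 replicates 2 and 3. The readthrough gene *Eef1akmt4-ece2* had 0 and 6 counts under DMSO and 20 and 13 under MAPK13-IN-1, and passed the filter of the test only through the treated group, so that its test is not used here.

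Elongation factors carried most of the factor counts. All 61 genes together took 4.79% and 4.83% of the counts of the DMSO libraries and 3.64% and 3.80% of those of the MAPK13-IN-1 libraries. *Eef1a1*, which encodes the tRNA carrier eEF1A1, took 1.77% and 1.78% under DMSO and 1.33% and 1.38% under MAPK13-IN-1. *Eef2*, which encodes the translocase, took 1.56% and 1.58% and then 0.890% and 1.02%. This pair made up 69.6% and 69.5% of the factor counts in the DMSO libraries and 60.9% and 63.1% in the treated libraries. The remaining genes differed much less in sum, at 1.46% and 1.47% of the library under DMSO and 1.42% and 1.40% under treatment. These are shares of total counts, without the TMM scaling used for the calls. Its factors were 0.960 and 0.955 under DMSO and 1.05 and 1.04 under treatment, so that the difference is larger on the normalised scale. In the replicate 1 pair all 61 genes took 3.89% of summed FPKM with DMSO and 3.39% with MAPK13-IN-1.

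On the normalised scale *Eef2* had 16249 and 16501 CPM in DMSO replicates 2 and 3, and 8488 and 9808 CPM in MAPK13-IN-1 replicates 2 and 3. Both treated libraries were far below both DMSO libraries. The log2 fold change of *Eef2* was -0.84 (SE 0.0586, adjusted p = 9.64e-07), and its FPKM went from 2789 to 1781 in the replicate 1 pair. *Eef1a1* had 18469 and 18663 CPM under DMSO and 12669 and 13274 CPM under MAPK13-IN-1, without overlap. Its log2 fold change was -0.52 (SE 0.0381, adjusted p = 1.36e-06), and its level in the replicate 1 pair was 6467 FPKM with DMSO and 5894 FPKM with treatment. Processed copies of *Eef1a1*, *Eif4a1* and *Eif5a* lie elsewhere in the genome, and how reads were shared among them is not known here. Per transcript length, *Eef1a1* and *Eef2* ranked highest of the 61 genes in both libraries of that pair. They were followed in the DMSO library by *Eef1g* (732 FPKM), *Eif5a* (570.3 FPKM), *Eif1* (501 FPKM), *Eef1b2* (394 FPKM) and *Eif3f* (312 FPKM).

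The eEF1B complex recharges eEF1A with GTP, and its subunit genes did not move as a block. *Eef1g*, the scaffold subunit, had 1638.5 and 1674 CPM under DMSO and 1291 and 1378.5 CPM under treatment, and fell (log2 fold change -0.31, adjusted p = 0.000254). *Eef1b2*, an exchange subunit, had 1131 and 1133 CPM and then 917 and 963 CPM (log2 fold change -0.27, adjusted p = 0.000596). In each of these genes the treated libraries were the lower ones, but *Eef1b2* was higher in the treated library of the replicate 1 pair, at 394 and 489 FPKM. *Eef1d*, the other exchange subunit, had 218 and 219.7 CPM under DMSO and 246 and 244 CPM under MAPK13-IN-1. It was thus the higher under treatment in the count table (log2 fold change 0.16, adjusted p = 0.0186), but not in the replicate 1 pair (113 and 95.5 FPKM). *Eef1d* was not called when either DMSO library was left out, at log2 fold changes of 0.14 without replicate 2 and 0.16 without replicate 3. It was called in 9 of 11 alternatives. *Eef1e1* encodes a related protein of the aminoacyl-tRNA synthetase complex. Its CPM were 30.4 and 31.4 under DMSO and 22.3 and 21.0 under treatment (log2 fold change -0.51, adjusted p = 0.000554).

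Enzymes that modify elongation factors were among the genes with the largest falls, at low counts. *Eef1akmt4*, a lysine methyltransferase of eEF1A, had 257 and 209 counts under DMSO and 144 and 112 under treatment. Its log2 fold change of -1.26 (SE 0.185, adjusted p = 0.00017) was the lowest of the 61, with the treated libraries below both DMSO libraries, whereas its FPKM in the replicate 1 pair were 9.39 and 10.5. *Eef2kmt*, which methylates eEF2, had 412 and 420 counts and then 247 and 280 (log2 fold change -1.05, adjusted p = 4.73e-05). *Eef1akmt1*, another eEF1A methyltransferase, had 366 and 382 counts under DMSO and 241 and 257 under treatment. No treated library reached a DMSO library in *Eef2kmt* or *Eef1akmt1* after normalisation, and the log2 fold change of *Eef1akmt1* was -0.97 (adjusted p = 6.57e-05). The replicate 1 pair differed less, with *Eef2kmt* at 6.22 and 5.38 FPKM and *Eef1akmt1* at 21.5 and 21.3 FPKM. *Eef1akmt2* and *Eef1aknmt*, the remaining methyltransferase genes that were kept, had log2 fold changes of -0.63 and -0.59 (adjusted p = 0.00139 and 0.000601). *Eef2k*, whose kinase product phosphorylates and inhibits eEF2, had 40.2 and 43.2 CPM under DMSO and 45.9 and 41.2 CPM under treatment. These values overlapped, the log2 fold change was 0.06 (adjusted p = 0.535), and in the replicate 1 pair *Eef2k* had the lowest level per length of the 61 genes, at 2.42 and 1.32 FPKM.

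eIF1 and eIF1A keep the small subunit in a state that scans for the start codon. *Eif1* had 677 and 692 CPM in DMSO replicates 2 and 3 and 403 and 394 CPM in MAPK13-IN-1 replicates 2 and 3. Both treated values were well below both DMSO values, and the log2 fold change was -0.78 (SE 0.0491, adjusted p = 4.99e-07). *Eif1* also went from 501 to 343 FPKM in the replicate 1 pair. Its paralog *Eif1b* had 38.6 and 35.4 CPM and then 33.4 and 34.1 CPM, and was not called (log2 fold change -0.13, adjusted p = 0.184). The eIF1A genes likewise differed from each other. *Eif1ax* had 94.2 and 92.4 CPM under DMSO and 66.4 and 68.3 CPM under treatment (log2 fold change -0.47, adjusted p = 9.15e-05), whereas *Eif1a* had 94.5 and 89.8 CPM and then 100.2 and 92.0 CPM. The *Eif1a* values overlapped between groups (log2 fold change 0.06, adjusted p = 0.45), and it was called higher when libraries were scaled by their totals alone (0.19, adjusted p = 0.0358, the lowest of its alternatives, which ran up to 0.982). *Eif1ad*, which encodes a protein with an eIF1A-like domain that acts in small subunit maturation, had 62.2 and 62.0 CPM under DMSO and 34.2 and 36.9 CPM under treatment. It fell in the count table (log2 fold change -0.81, adjusted p = 7.18e-06) and went from 31.9 to 21.9 FPKM in the replicate 1 pair.

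eIF2 carries the initiator tRNA, and its 3 subunit genes moved in different directions. *Eif2s1*, the subunit that stress kinases phosphorylate, had 91.1 and 91.0 CPM under DMSO and 81.0 and 76.5 CPM under treatment (log2 fold change -0.21, adjusted p = 0.0148). *Eif2s2*, the beta subunit, had 359.8 and 349 CPM and then 304 and 281 CPM (log2 fold change -0.27, adjusted p = 0.00173). The treated libraries were lower for both genes, and *Eif2s2* had a larger difference in the replicate 1 pair, where it went from 107 to 57.3 FPKM. *Eif2s3x*, the X-linked gene of the gamma subunit, had 215 and 210.2 CPM under DMSO and 249 and 248 CPM under treatment. It was higher in both treated libraries (log2 fold change 0.23, adjusted p = 0.0034), while the replicate 1 pair had 48.9 and 48.2 FPKM. The excluded Y-linked copy *Eif2s3y* had 77.8 and 82.1 CPM under DMSO and 71.0 and 71.2 CPM under treatment, and was lower (log2 fold change -0.17, adjusted p = 0.0417), with 52.2 and 59.6 FPKM in the replicate 1 pair. With fewer libraries some calls in this complex were lost at similar fold changes, as *Eif2s1* had -0.22 without replicate 2 of DMSO (adjusted p = 0.0913) and -0.22 without replicate 3 (adjusted p = 0.0996, in a range of 0.00014 to 0.281 over all alternatives). *Eif2s3x* had a log2 fold change of 0.20 when DMSO replicate 3 was left out (adjusted p = 0.0854, the highest of a range from 5.77e-06). *Eif2a* encodes a separate protein that can bring initiator tRNA without GTP. It had 83.8 and 81.2 CPM under DMSO and 131 and 128 CPM under MAPK13-IN-1, a rise with clear separation of the libraries (log2 fold change 0.65, adjusted p = 6.87e-06). For *Eif2a* the replicate 1 pair ran the other way, at 36.1 FPKM with DMSO and 29.9 FPKM with treatment. *Eif2d*, which can likewise place tRNA on the ribosome and acts in recycling, had 103 and 106 CPM and then 90.8 and 80.5 CPM (log2 fold change -0.29, adjusted p = 0.00506, and 1.56e-09 to 0.072 over the alternatives).

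eIF2B is the exchange factor that reloads eIF2 with GTP, and 4 of its 5 subunit genes were lower, beside 32.3% of all genes tested. *Eif2b5*, the catalytic subunit, had 94.0 and 98.2 CPM under DMSO and 50.8 and 57.8 CPM under treatment. The groups were far apart relative to the spread within them, and the log2 fold change was -0.83 (SE 0.0767, adjusted p = 6.67e-06). *Eif2b3*, which pairs with the catalytic subunit, had 17.3 and 18.5 CPM and then 11.5 and 11.7 CPM (log2 fold change -0.63, adjusted p = 0.000482). The regulatory subunit gene *Eif2b2* had 70.3 CPM in both DMSO libraries and 55.5 and 54.5 CPM in the treated libraries (log2 fold change -0.35, adjusted p = 0.000866). *Eif2b4*, also regulatory, had the smallest fall of the 4 at -0.27 (adjusted p = 0.0248), and its call was lost without DMSO replicate 2, in DESeq2 and with at least 10 counts asked for in each library (log2 fold changes -0.22, -0.26 and -0.23, adjusted p = 0.214, 0.075 and 0.0501, in a range of 0.00145 to 0.214). *Eif2b1*, the remaining regulatory subunit, had 32.1 and 35.6 CPM under DMSO and 36.2 and 33.8 CPM under treatment, which overlap (log2 fold change 0.05, adjusted p = 0.65). In the replicate 1 pair *Eif2b5* had 24.8 and 21.6 FPKM, and the 4 genes that fell in the count table all had ratios below 0.

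eIF3 is the largest initiation factor and bridges the small subunit to the cap-binding complex. Of its 14 genes, 6 were lower (42.9%), 3 higher (21.4%) and 5 not called, and their median log2 fold change was 0.00. The share called, 64.3%, was close to the 63.8% of all genes. The 5 genes *Eif3b*, *Eif3c*, *Eif3d*, *Eif3g* and *Eif3i* were lower, and *Eif3k* was the sixth. *Eif3g*, an RNA-binding subunit, had 141 and 149 CPM under DMSO and 91.9 and 90.8 CPM under treatment, which left a wide gap between the groups (log2 fold change -0.67, adjusted p = 5.74e-06). *Eif3b*, the scaffold to which *Eif3g* and *Eif3i* products bind, had 295 and 308 CPM and then 228 and 231 CPM (log2 fold change -0.39, adjusted p = 9.74e-05). *Eif3c*, a core subunit, had 669.6 and 703 CPM and then 528 and 535 CPM (log2 fold change -0.37, adjusted p = 9.46e-05). These genes were lower in both treated libraries, and *Eif3c* went from 228 to 132 FPKM in the replicate 1 pair. The log2 ratios of that pair were -0.03 for *Eif3b*, -0.09 for *Eif3g*, -0.15 for *Eif3d*, -0.27 for *Eif3i* and 0.09 for *Eif3k*. *Eif3i* and *Eif3d*, the latter a cap-binding subunit, had log2 fold changes of -0.38 and -0.37, and *Eif3k* one of -0.29. *Eif3e*, a subunit of the octamer core, had the largest rise, from 247 and 237 CPM to 341 and 299.6 CPM (log2 fold change 0.40, adjusted p = 0.0004). Both treated libraries were higher for *Eif3e*, and so was the treated library of the replicate 1 pair, at 168 and 181 FPKM.

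*Eif3h*, another subunit of the octamer, had 496 and 478 CPM under DMSO and 562 and 577 CPM under treatment (log2 fold change 0.23, adjusted p = 0.00247). *Eif3j1*, whose product sits in the decoding centre of the small subunit, had 48.4 and 45.9 CPM and then 59.0 and 56.0 CPM (log2 fold change 0.29, adjusted p = 0.00584). Neither call held without DMSO replicate 3, where *Eif3h* had a log2 fold change of 0.19 (adjusted p = 0.0793, the highest of a range from 1.78e-08) and *Eif3j1* one of 0.24 (adjusted p = 0.103, the highest of a range from 2.67e-05). The near copy *Eif3j2* had 11.8 and 11.6 CPM under DMSO and 14.5 and 12.9 CPM under treatment, without a call (log2 fold change 0.23, adjusted p = 0.106, and 0.0263 without MAPK13-IN-1 replicate 3, in a range of 0.021 to 0.346), and reads may be shared between these copies. *Eif3a*, the largest subunit, had 521 and 524 CPM and then 591 and 533 CPM, and its log2 fold change of 0.11 was not called (adjusted p = 0.132). *Eif3m*, an octamer subunit, had 240.5 and 239.7 CPM and then 264 and 257 CPM (log2 fold change 0.12, adjusted p = 0.0686). In *Eif3a* and *Eif3m* the treated libraries lay slightly above the DMSO libraries, and both were called when MAPK13-IN-1 replicate 3 was left out (adjusted p = 0.000105 and 0.00908, in ranges of 0.000105 to 0.544 and 0.00201 to 0.382). *Eif3m* was called in 6 of 11 alternatives, among them leaving out MAPK13-IN-1 replicate 2 (adjusted p = 0.0496), RLE scaling (0.0463) and asking for at least 10 counts in each library (0.0175), and *Eif3a* in 4, among them that filter (0.0391). These 2 genes had ratios below 0 in the replicate 1 pair, with *Eif3a* at 96.2 and 79.6 FPKM and *Eif3m* at 167 and 128 FPKM. *Eif3f*, the eIF3 gene with the highest level per length in the DMSO library of that pair, had 679 and 695 CPM under DMSO and 608 and 699.9 CPM under treatment, and the values overlapped. *Eif3f* was not called (log2 fold change -0.07, adjusted p = 0.355) except without MAPK13-IN-1 replicate 3 (-0.18, adjusted p = 2.3e-05, the lowest of a range up to 0.912). *Eif3l*, which joins *Eif3k* in a module of its own, had a log2 fold change of 0.08 (adjusted p = 0.246), and was called without MAPK13-IN-1 replicate 2 (0.11, adjusted p = 0.0348, in a range of 0.0081 to 0.846).

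**Figure D2:**
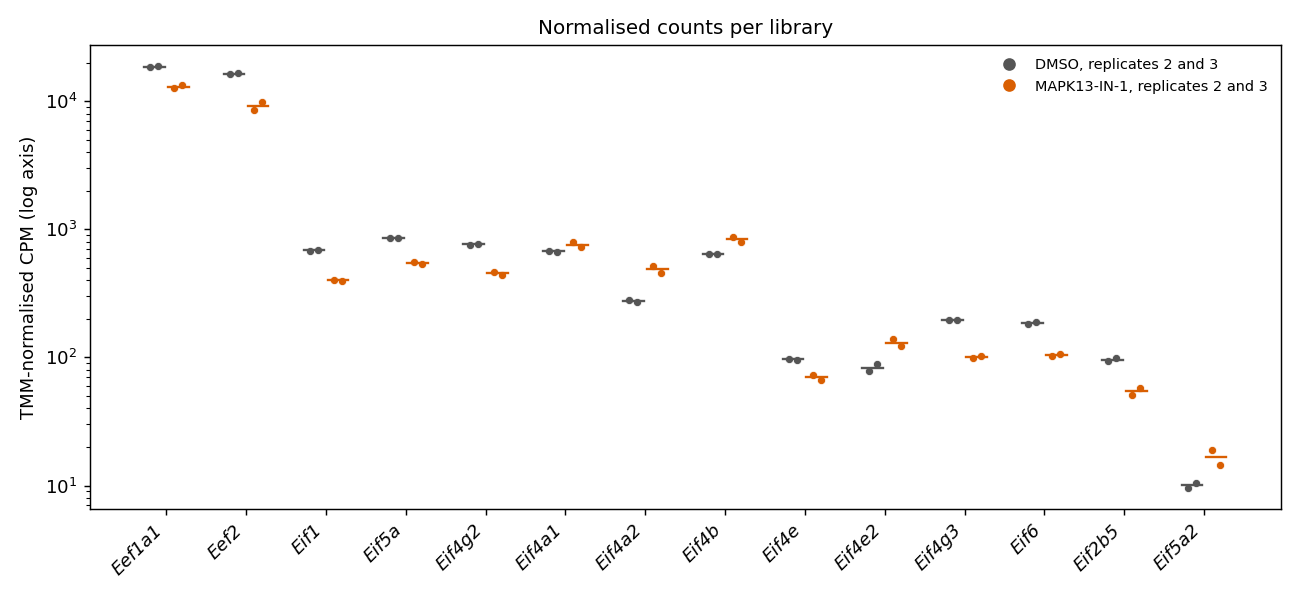
TMM-normalised CPM, on a log axis, of 14 factor genes in each of the 4 libraries of the count table (points) with the mean of each group (lines, n = 2). The orange MAPK13-IN-1 points lie below the grey DMSO points for *Eef1a1*, *Eef2*, *Eif1*, *Eif5a*, *Eif4g2*, *Eif4e*, *Eif4g3*, *Eif6* and *Eif2b5*, and above them for *Eif4a1*, *Eif4a2*, *Eif4b*, *Eif4e2* and *Eif5a2*.

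The log2 fold changes of the 11 eIF4 genes kept ranged from -0.95 to 0.83. eIF4G is the scaffold that holds the cap-binding protein and the helicase. Its 3 genes all fell, beside 32.3% of all genes tested and 39.6% of those with a mean of at least 50 CPM. *Eif4g3* had 195 CPM in both DMSO libraries and 99.0 and 103 CPM in the treated libraries, and *Eif4g1* had 515 and 523 CPM and then 383 and 400.2 CPM. *Eif4g2*, whose product lacks the cap-binding protein's site and serves other modes of initiation, had 753 and 769 CPM under DMSO and 466 and 438 CPM under treatment. The groups were separate for each of these genes, with log2 fold changes of -0.95 for *Eif4g3* (adjusted p = 4.16e-07), -0.75 for *Eif4g2* (adjusted p = 9.01e-07) and -0.41 for *Eif4g1* (adjusted p = 5.43e-05). In the replicate 1 pair *Eif4g2* went from 129 to 105 FPKM, while *Eif4g3* had 22.9 and 24.1 FPKM and *Eif4g1* 89.4 and 84.4 FPKM.

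The genes of DEAD-box helicases did not move together. *Eif4a2*, which encodes an isoform of the eIF4A helicase, had 279.7 and 271 CPM in DMSO replicates 2 and 3 and 522 and 455 CPM in MAPK13-IN-1 replicates 2 and 3. Its libraries were clearly separate, and its log2 fold change of 0.83 (SE 0.0673, adjusted p = 2.69e-06) was the highest of the 61. In the replicate 1 pair *Eif4a2* was higher under treatment too, at 85.7 and 127 FPKM. *Eif4a1*, the main eIF4A gene, had 673 and 669 CPM and then 792 and 727 CPM (log2 fold change 0.18, adjusted p = 0.014). The rise of *Eif4a1* was small, with an adjusted p of 0.105 when DMSO replicate 2 was left out and 0.121 for replicate 3, each at a log2 fold change of 0.17 (2.54e-08 to 0.121 over all alternatives), and its FPKM in the replicate 1 pair were 258 and 239.9. *Eif4a3*, a helicase of the exon junction complex and not of cap-dependent initiation, had 129.9 and 133 CPM under DMSO and 82.8 and 84.0 CPM under treatment (log2 fold change -0.66, adjusted p = 5.54e-06). *Eif4b*, a cofactor that stimulates the helicase, had 636 and 645 CPM and then 869 and 801 CPM (log2 fold change 0.38, adjusted p = 0.000117). *Eif4b* was thus higher in both treated libraries of the count table and lower in that of the replicate 1 pair, at 148 and 119 FPKM. The related cofactor gene *Eif4h* was not called (log2 fold change -0.09, adjusted p = 0.128) except without MAPK13-IN-1 replicate 3 (-0.11, adjusted p = 0.0169, the lowest of a range up to 0.829).

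Among the cap-binding proteins, *Eif4e* encodes the one that starts most translation, and *Eif4e2* a homologue that represses translation of bound mRNAs. *Eif4e* had 97.3 and 95.4 CPM under DMSO and 72.8 and 67.1 CPM under treatment, while *Eif4e2* had 78.2 and 88.4 CPM and then 138 and 123 CPM. The DMSO libraries had more *Eif4e* and the treated libraries more *Eif4e2*, without overlap in either gene. The log2 fold changes were -0.46 for *Eif4e* (adjusted p = 0.000157) and 0.65 for *Eif4e2* (adjusted p = 5.01e-05). The replicate 1 pair differed, with *Eif4e* at 22.6 and 29.7 FPKM and *Eif4e2* at 33.4 and 32.7 FPKM. *Eif4e3*, an atypical cap-binding homologue, had 36.5 and 39.4 CPM under DMSO and 28.7 and 32.2 CPM under treatment (log2 fold change -0.32, adjusted p = 0.0108). That fall was not called without DMSO replicate 3 (-0.27, adjusted p = 0.1, the highest of a range from 8.36e-06), and in the replicate 1 pair *Eif4e3* went from 5.62 to 10.9 FPKM.

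Proteins that bind eIF4E hold it away from eIF4G until mTOR signalling phosphorylates them. *Eif4ebp1* had 231 and 242 CPM in the DMSO libraries and 177 and 196 CPM in the treated libraries, and *Eif4ebp2* had 108 and 106 CPM and then 104 and 108 CPM. *Eif4ebp1* fell (log2 fold change -0.34, adjusted p = 0.000873), and *Eif4ebp2* overlapped between groups (-0.02, adjusted p = 0.83). A larger difference was seen in the replicate 1 pair, with *Eif4ebp1* at 105 and 38.4 FPKM, the lowest ratio of the 61 genes at -1.42. *Eif4ebp3* had 8.26 and 9.16 CPM and then 10.7 and 10.4 CPM, and was not called (log2 fold change 0.28, adjusted p = 0.081), but was when at least 10 counts were asked for in each library (adjusted p = 0.0492, in a range of 0.0173 to 0.436). *Eif4enif1*, which encodes the eIF4E transporter of the nucleus and of mRNA decay bodies, had 125 and 128 CPM under DMSO and 79.8 and 79.6 CPM under treatment. Its fall was well outside the spread of the libraries (log2 fold change -0.67, adjusted p = 5.07e-06), and the replicate 1 pair went from 69.0 to 54.3 FPKM.

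The late steps of initiation join the large subunit. *Eif6* encodes a factor that binds the large subunit and keeps it from joining too early, and had 183 and 191 CPM under DMSO and 103 and 107 CPM under MAPK13-IN-1. The treated libraries had clearly less of it (log2 fold change -0.83, SE 0.0589, adjusted p = 1.08e-06), but the replicate 1 pair had 90.5 and 90.8 FPKM. *Eif5*, the GTPase activator of eIF2, had 263 and 262 CPM and then 233 and 219 CPM (log2 fold change -0.22, adjusted p = 0.00571), and was not called under upper-quartile scaling (adjusted p = 0.0535) or under scaling by library totals alone (adjusted p = 0.174, the highest of a range from 8.53e-08). *Eif5b*, the GTPase that joins the subunits, had 117 and 126 CPM and then 135 and 131 CPM. Its log2 fold change of 0.13 was not called (adjusted p = 0.1) but passed without MAPK13-IN-1 replicate 3 (adjusted p = 0.0141) and with at least 10 counts in each library (0.0316, in a range of 0.00474 to 0.665).

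eIF5A carries the modified amino acid hypusine and helps the ribosome through stretches that form peptide bonds slowly. *Eif5a* had 859 CPM in both DMSO libraries and 559 and 534 CPM in the treated libraries, and *Eif5a2*, a paralog of more restricted expression, had 9.66 and 10.5 CPM and then 19.1 and 14.6 CPM. *Eif5a* was lower in both treated libraries (log2 fold change -0.65, adjusted p = 1.54e-06) and *Eif5a2* higher (0.74, SE 0.144, adjusted p = 0.00111). In the pair of replicate 1, *Eif5a* had 570.3 and 471 FPKM and *Eif5a2* 3.53 and 3.92 FPKM.

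Ratios within a library, between paralogs and for *Eef2k* and its substrate gene *Eef2*, do not depend on how libraries are scaled to each other. With 2 libraries against 2 the smallest two-sided p of an exact permutation test is 0.333, so that these ratios are given without a test. *Eif4a2* had 0.416 and 0.405 counts per count of *Eif4a1* under DMSO and 0.659 and 0.626 under treatment, a 1.57-fold difference of the means. The FPKM ratio of the replicate 1 pair differed by 1.59-fold in the same direction. The ratio of *Eif4e2* to *Eif4e* was 0.804 and 0.927 under DMSO and 1.90 and 1.83 under treatment, a difference of 2.16-fold (0.743-fold in the replicate 1 pair). *Eif5a2* had 0.0112 and 0.0122 counts per count of *Eif5a* and then 0.0341 and 0.0273, a difference of 2.62-fold (1.34-fold in the replicate 1 pair). *Eif1b* to *Eif1* was 1.57-fold higher in the means and *Eif1a* to *Eif1ax* 1.45-fold, and the replicate 1 pair had 1.13-fold and 1.32-fold. *Eif4ebp2* to *Eif4ebp1* was 1.26-fold higher and *Eef2k* to *Eef2* 1.89-fold higher under treatment, with 2.82-fold and 0.850-fold in the replicate 1 pair. Within the scaffold genes, *Eif4g3* to *Eif4g1* differed by 0.687-fold and *Eif4g2* to *Eif4g1* by 0.788-fold, against 1.11-fold and 0.866-fold in the replicate 1 pair. The libraries of the groups did not overlap in these 9 of 11 ratios, a share near that of all genes in CPM (41.4% lower and 41.7% higher without overlap). They overlapped in *Eif4e3* to *Eif4e* (1.11-fold) and *Eif3j2* to *Eif3j1* (0.961-fold), which were 1.47-fold and 1.61-fold higher in the replicate 1 pair. The ratio of *Eef1a2* to *Eef1a1* was not computed, as *Eef1a2* had too few counts.

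**Figure D3:**
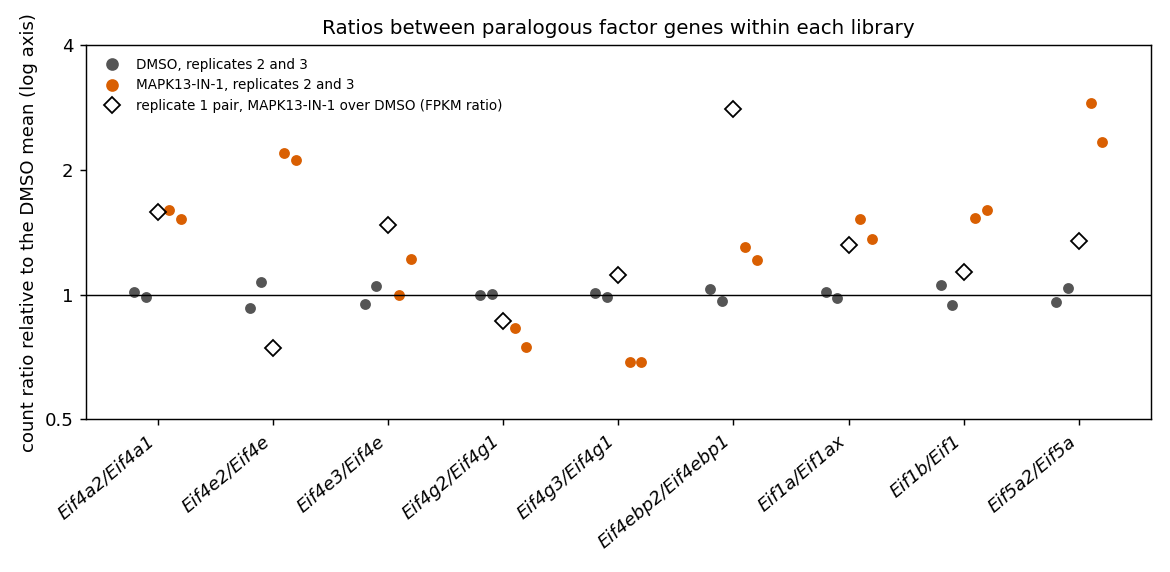
Ratios between pairs of factor genes within each library, divided by the mean ratio of the DMSO libraries, on a log axis (points, counts, 2 libraries per group), and the fold difference of the same ratio in FPKM in the replicate 1 pair (open diamonds). The ratio of *Eif4a2* to *Eif4a1* differs by 1.57-fold in counts and 1.59-fold in FPKM, whereas that of *Eif4e2* to *Eif4e* differs by 2.16-fold and 0.743-fold.

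The replicate 1 pair came from other libraries and had no part in the test. Of the 61 factor genes, 44 had a log2 ratio below 0 and 17 above 0 there, and the median was -0.17. Of the 10448 genes that reached 1 FPKM in both of its libraries, 45.7% were below 0 and 54.3% above. The sign was the same as in the count table for 40 factor genes and opposite for 21. Agreement of sign was not computed over all genes, so that these counts are not read as particular to the factor genes. Among the 37 genes called lower, 29 were below 0 and 8 above. Among the 11 called higher, only *Eif3e*, *Eif3j1*, *Eif4a2* and *Eif5a2* were above 0, and 7 were below. For 5 genes the directions were opposite by more than 0.2 on both scales, namely *Eef1b2*, *Eif2a*, *Eif4b*, *Eif4e* and *Eif4e3*. Batch, library kit and the levels of cell type markers differed between the pair and the count table. Which of them bears on these reversals was not tested.

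Genes that act with the factors were read from the same fit, in which 63.8% of all genes were called, 32.3% lower and 31.5% higher. Of 17 other cytosolic initiation factors and mRNA-binding partners, 10 were lower (58.8%) and 1 higher (5.88%), with a median log2 fold change of -0.24. *Larp1*, which binds mRNAs that begin with a pyrimidine tract, had 501 and 515 CPM and then 296 and 278 CPM (log2 fold change -0.82, adjusted p = 6.79e-07), and the scanning helicase gene *Dhx29* had a log2 fold change of -1.46 (adjusted p = 8.22e-07). *Paip2b*, an inhibitor of the poly(A)-binding protein, was the gene that rose (log2 fold change 0.98, adjusted p = 1.18e-06). Of 9 termination, recycling and rescue genes, 6 were lower (66.7%) and 1 higher (11.1%), with log2 fold changes of -0.66 for *Gspt1* and -0.63 for *Etf1*, the release factors, and -0.54 for *Zfp598*, a sensor of collided ribosomes. *Abce1*, which was lower, is counted both in this list and among the 17 genes above. Of 9 enzymes of hypusine and diphthamide, the modifications of eIF5A and eEF2, 5 were lower (55.6%) and 1 higher (11.1%), with log2 fold changes of -1.02 for *Dph6*, -0.78 for *Dohh* and -0.86 for *Dph1*. Of 6 genes of selenocysteine insertion, 3 were lower (50%) and 3 not called, with log2 fold changes of -0.92 for *Sephs2*, -0.61 for *Secisbp2* and -0.61 for the elongation factor gene *Eefsec*. Of 8 kinases and phosphatases that act on initiation factors, *Mtor* (-1.09) and *Rps6kb2* (-0.65) were lower (25%) and 6 were not called. Of 10 mitochondrial translation factors, 2 were lower (20%), 3 higher (30%) and 5 not called, shares near or below those of all genes, with a median log2 fold change of 0.00. *Mtif3* had a log2 fold change of 0.67, *Mtif2* of -0.58 and *Gfm2* of -0.43. Of 10 cell cycle genes, 9 were lower (90%), with a median of -0.80 and the smallest p for *Pcna* (log2 fold change -1.04), *Mcm2* (-1.07) and *Ccna2* (-1.03). The part of cell cycle state in the factor genes was not tested. *Mapk13* itself had 79 and 74 counts under DMSO and 21 and 51 under treatment (log2 fold change -1.47, adjusted p = 0.0049), but went the other way in the replicate 1 pair, from 0.191 to 3.28 FPKM.

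The 61 genes lie on 19 chromosomes, the X included, with at most 6 on any of them, so that no position is shared by all. On chromosome 11, *Eif4a1* (chr11:69666936-69672423) and *Eif5a* (chr11:69916712-69921958) lie near each other in the GRCm38.p6 annotation, and the former rose while the latter fell. On chromosome 16, *Eif2b5*, *Eef1akmt4* and *Eif4g1* lie close together (starts at 20498795, 20611601 and 20672720). All 3 fell, beside 60.7% of the factor genes and 32.3% of all genes tested.

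Promoter sequence was compared for the 47 factor genes with an entry in the RefSeq promoter table (GRCm38.p6, 250 bases before to 50 after the annotated start). The E-box CACGTG reads the same on both strands, and is a motif that Myc and related factors can bind. It occurred in 14 of the 47 genes (29.8%), in 10.8% of the 12606 genes tested that have an entry, and in 8.09% of all 27025 genes of the table. By call, the E-box occurred in 7 of 29 lower genes (24.1%), 2 of 8 higher genes (25%) and 5 of 10 genes not called (50%). These groups are small, and a part of Myc in the factor genes was not tested. *Myc* had 265 and 295 CPM under DMSO (280.1 ± 21.6, SD, n = 2) and 132 and 147 CPM under treatment (139.9 ± 10.5, adjusted p = 1.19e-06 in edgeR), and 55.0 and 73.7 FPKM in the replicate 1 pair. The amino acid response element TGATGNAAN, searched on both strands, was found in 2 of 47 genes (4.26%) and 2.91% of genes tested. A C at the annotated start followed by at least 4 pyrimidines, the start of a terminal oligopyrimidine tract, was found in 2 of 47 genes, *Eif3f* and *Eif2s3x* (4.26% beside 3.2% of genes tested). That search was made at the annotated base only, so that a tract beginning at a neighbouring base was missed. A match is a description of the letters, and no match says only that these letters are not in the window. The windows below hold the E-box in capitals and are shown for genes of each direction, to let the flanks be compared. They lie at chr10:81176576-81176605 for *Eef2*, chr16:20672661-20672690 for *Eif4g1* and chr3:138527192-138527221 for *Eif4e*, all on the plus strand and lower under treatment. The windows of the higher genes are at chr11:69672595-69672624, minus strand, for *Eif4a1* and chr3:28781148-28781177, plus strand, for *Eif5a2*, and that of *Eif3f*, not called, is at chr7:108934335-108934364, plus strand.
Eef2: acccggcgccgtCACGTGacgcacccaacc
Eif4g1: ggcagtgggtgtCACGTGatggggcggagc
Eif4e: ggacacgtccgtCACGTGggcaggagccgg
Eif4a1: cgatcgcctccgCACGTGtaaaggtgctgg
Eif5a2: cagggcgagcttCACGTGacggggcgggac
Eif3f: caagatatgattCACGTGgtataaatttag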

How the data were processed

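The authors deposited raw counts per gene for replicates 2 and 3 of each group, and for the replicate 1 pair normalized values whose unit is not named. The latter were read as FPKM, normalized for gene length and library size, as the values deposited are not whole numbers and sum to 405150 and 390729. The submitters' processing notes name fastp 0.21.0, HISAT2 2.1.0, StringTie 2.1.5 and DESeq2 1.30.1 for the count table with no role given, and FastQC and HISAT2 for the pair. Of the sample columns, 0 were left unused.

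The count table was fitted with edgeR 4.0.16 and limma 3.58.1, under R 4.3.3. Genes passed filterByExpr (minimum count 10, minimum total 15), which kept 16269. Libraries were scaled by TMM (factors 0.960, 0.955, 1.05 and 1.04 in the order DMSO 2, DMSO 3, MAPK13-IN-1 2, MAPK13-IN-1 3), and the quasi-likelihood test compared 2 libraries with 2 without covariates, with Benjamini-Hochberg adjustment over all genes. The biological coefficient of variation was 0.0659. Marker sums were scaled by library totals alone. A marker gene is not reported here and is in no sum. Log2 ratios of the replicate 1 pair used a pseudocount of 1, which shrinks ratios of low values, and were not tested. The alternatives were other scalings, other filters, DESeq2 1.42.0, a replicate block, fold limits, another pseudocount and leaving out each library.

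Any factor gene could be named. Values per library were given, by role, for at most 4 genes with the smallest p, the gene highest per length, paralog pairs, and genes opposite in the replicate 1 pair by more than 0.2. Of each pathway list at most 3 genes with the smallest p were named, and of marker lists the most abundant gene and markers at 0. *Abce1*, *Cd4*, *Eif2s3y*, *Myc*, *Mapk13* and the positions given on chromosomes 11 and 16 are outside this rule, and were chosen after their values were seen, as were further factor genes with values per library. The members and lists were chosen with earlier results of these data known. Promoter sequences and positions were from RefSeq (GRCm38.p6, the build of mm10), matched by symbol, with 47 of 61 promoters and 61 of 61 genes found.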

Additional observations from a re-analysis of the deposited data

How the results depend on the processing

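Of 61 factor genes, 32 of 37 lower, 6 of 11 higher and 4 of 13 not called had the same call in all 11 alternatives, and no called gene among them changed direction. Scaling by library totals moved the median of all genes by 0.13 on the log2 scale, against which its changes are read. It gave 18 higher factor genes and a median of -0.17, with 6176 higher and 4302 lower of all genes. Upper-quartile scaling gave 17 and -0.21, with 5823 and 4633 of all genes, and at least 10 counts in each library gave 15 and -0.25, with 4606 and 4716. The 1.5-fold rule gave 17 lower and 4 higher factor genes, and 3189 lower and 3310 higher of all genes. The 1.2-fold glmTreat test gave 6 higher factor genes. Leaving out each library gave 6 to 15 higher factor genes (6 without DMSO replicate 3), 35 to 39 lower, and medians of -0.35 to -0.27, while all genes gave 4298 to 5268 higher (4298 without DMSO replicate 3, from 5122) and 4433 to 5675 lower. A lone library was then assumed to vary like the other group. Of the 48 calls, 7 were lost without DMSO replicate 3, 4 without DMSO replicate 2 and 5 under library totals, which also added 7, and 6 were added without MAPK13-IN-1 replicate 3. *Mki67* (-0.16, not called) ranged from -0.47 to 0.095 on leaving out a library, and reversed without MAPK13-IN-1 replicate 2. Centring the replicate 1 pair moved its median to -0.22. The cause of these shifts was not tested. A replicate block gave 37 lower and 11 higher factor genes, and 5384 lower and 5261 higher of all genes. Between same-numbered libraries the deviations had a correlation of r = 0.00735 over 16269 genes, which are not independent. With 2 libraries per group this cannot tell whether same-numbered libraries shared an animal or a culture. The depth of the replicate 1 pair is unknown, and 2 libraries per group limit small changes.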
